A study of Mus musculus with 24 samples.

Results

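The hippocampus of mice labelled Tob-KO was compared at 1 h after fear conditioning with that of naive mice of the same genotype, across all genes. The members are the 3 libraries labelled KO at 1 h and the 3 labelled KO and naive, 6 of the 24 libraries of the series. They were taken by their labels, and this choice was made with earlier results of these data known. Of the 47593 genes in the count table, 18324 passed the filter on low counts (0.2 CPM, counts per 1e+06 counts, in 2 of the 6 libraries) and were tested. The series holds 8 groups of 3 libraries, from naive Tob-KO and wild-type (WT) mice and from conditioned ones killed at 15 min, at 1 h or at 3 h. All mice were males on a C57BL/6J background, and those in behavioural work were 8 to 12 weeks old. The same age range is listed for each library. Conditioning paired a tone with foot shocks, and naive mice received neither. The Tob-KO is a whole-animal knockout, unlike the floxed line also used in the study, and whole hippocampus does not separate neurons from glia. The labels do not say whether a library came from 1 mouse or from a pool, and p-values measure the spread between these libraries, which may be technical in part.

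The libraries held 28847989 to 30004259 counts at 1 h and 30384485 to 33704345 in naive mice. All 13 markers of hippocampal principal neurons were detected, with a summed level of 1712 to 1925 CPM at 1 h and 1841 to 2055 CPM in naive mice. Markers of choroid plexus, the secretory epithelium next to the hippocampus, varied widely: their 16 genes summed to 292 CPM in naive replicate 1, against 3801 and 7416 CPM in the other naive libraries and 3406 to 5125 CPM at 1 h. Naive replicate 1 thus stood apart, and the fit was repeated without it. The 8 markers of meningeal and vascular fibroblasts summed to 87.0 to 332 CPM in naive mice and 308 to 337 CPM at 1 h. The 7 oligodendrocyte markers summed to 4969 to 6546 CPM in naive mice and 5188 to 5318 CPM at 1 h, and the 7 astrocyte markers to 5039 to 5102 CPM and 4622 to 4801 CPM. No gene of the 12 marker lists passed the test at 1 h. In whole tissue, fewer cells of a type and less RNA per cell cannot be told apart.

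The targeted gene, listed as Tob1 (chr11:94211454-94215495, GRCm38), was counted in all 6 libraries. It had 1592, 1762 and 1790 raw counts in the naive libraries labelled KO and 1537, 1167 and 1021 in the naive libraries labelled WT. The level therefore ran against the genotype label, and directions below are those of the libraries labelled Tob-KO. The sources used here do not say which part of the gene was deleted, and a count per gene cannot show it.

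When a neuron fires, calcium and kinase signalling switch on immediate early genes within minutes, without new protein synthesis. Many encode transcription factors of the FOS, EGR and NR4A families, and others act at the synapse or restrain the kinases that induced them, such as the dual-specificity phosphatases that switch off MAP kinases. In the hippocampus these genes are widely used as a record of recent activity, and learning tasks such as fear conditioning are known to induce them.

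Known entry points for these signals are the CArG box, bound by serum response factor, and the cyclic AMP response element (TGACGTCA, or its shorter core TGACG), bound by CREB. Cholesterol genes are driven through the sterol regulatory element (TCACCCCAC). The promoters of 5 genes that rose at 1 h are shown because each holds one of these motifs. The capitals mark CArG boxes in Egr2 and Dusp5, TGACG in Fos, TGACGTCA in Dusp1 and TCACCCCAC in Hmgcs1. Other copies of TGACG, on either strand, stay in lower case in Dusp1, Dusp5 and Hmgcs1. Sequences are RefSeq's on GRCm38.p6, read 5′ to 3′ along the gene from 250 to 51 bases before its start.
Egr2 (chr10:67537316-67537515, + strand): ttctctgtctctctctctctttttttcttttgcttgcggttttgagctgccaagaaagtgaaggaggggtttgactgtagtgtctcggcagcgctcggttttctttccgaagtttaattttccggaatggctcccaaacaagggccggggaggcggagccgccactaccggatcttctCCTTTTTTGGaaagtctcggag
Dusp5 (chr19:53528895-53529094, + strand): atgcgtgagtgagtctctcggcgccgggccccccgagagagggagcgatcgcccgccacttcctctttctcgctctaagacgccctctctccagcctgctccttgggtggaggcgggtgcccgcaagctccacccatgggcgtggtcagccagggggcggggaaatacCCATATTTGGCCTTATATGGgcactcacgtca
Fos (chr12:85473640-85473839, + strand): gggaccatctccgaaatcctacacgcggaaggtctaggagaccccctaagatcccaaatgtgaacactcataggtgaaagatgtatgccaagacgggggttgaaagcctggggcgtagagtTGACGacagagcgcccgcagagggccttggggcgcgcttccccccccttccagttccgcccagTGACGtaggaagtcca
Dusp1 (chr17:26508523-26508722, - strand): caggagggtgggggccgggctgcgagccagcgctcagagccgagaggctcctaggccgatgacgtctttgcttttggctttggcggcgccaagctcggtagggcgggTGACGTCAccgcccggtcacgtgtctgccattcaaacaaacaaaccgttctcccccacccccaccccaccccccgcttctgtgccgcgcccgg
Hmgcs1 (chr13:119690101-119690300, + strand): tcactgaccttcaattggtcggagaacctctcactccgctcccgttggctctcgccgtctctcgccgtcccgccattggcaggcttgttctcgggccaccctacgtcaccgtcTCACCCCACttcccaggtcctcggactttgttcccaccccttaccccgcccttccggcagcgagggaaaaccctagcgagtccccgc

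The Egr2 window, 1 of 5 that RefSeq's start sites give this gene and the first on the chromosome of the 4 with a CArG box, has its box 72 bases before the start. Dusp5 has a pair of adjoining boxes, from 82 and 72 bases before the start. In Fos, TGACG stands 129 and 66 bases before the start, in Dusp1 the full TGACGTCA begins at 143, and in Hmgcs1 TCACCCCAC begins at 137. Windows of 300 bases (250 before the start and 50 after it) were searched on both strands and matched 21 of the 27 genes that rose. A CArG box was found in 2 of the 21 (Dusp5 and Egr2) and in 1.67% of the 12398 tested genes with a window (1.63% of all 32851 windows). TGACGTCA was found in 2 of the 21 (Arl5b and Dusp1) and in 3.36% of the tested genes (1.79% of all windows). TCACCCCAC was found in 1 (Hmgcs1) and in 0.694% of the tested genes (0.551% of all windows). TGACG, which also matches within TGACGTCA, was in 13 of the 21 genes, in 32 of the 71 genes with a window that fell, and in 32.9% of the tested genes (20.8% of all windows). Motif matches are descriptions of letters and carry no test.

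At 1 h after conditioning, 123 of the 18324 genes differed from naive mice (edgeR's quasi-likelihood test, Benjamini-Hochberg adjusted p of at most 0.05), which is 0.671% of those tested. Of these, 27 rose (0.147%) and 96 fell (0.524%). In all 27 and all 96, the 1 h and naive libraries did not overlap. The share of all tested genes that did so is not given here. Non-overlap given below for a called gene therefore adds nothing to its call. The higher genes held 7 immediate early transcription factors, 3 activity-induced effectors, 3 phosphatases of the ERK pathway, Per1 and 5 genes of cholesterol synthesis. Of lists made after the values were seen, the lower genes included 19 splicing or nuclear speckle proteins, 5 long noncoding RNA genes and 6 matrix genes. Noncoding genes outside that list fell as well, and the gene types of all genes tested are given below. A change of at least 2-fold as well was met by 9 genes (0.0491%). Those higher were Arc, Egr1, Egr2, Fos, Fosb, Junb and Cyr61, and those lower were the RNAs Gm44037 and Gm42851. The median log2 fold change was 0.58 over the higher genes, -0.52 over the lower genes and -0.01 over all genes tested.

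**Figure D1:**
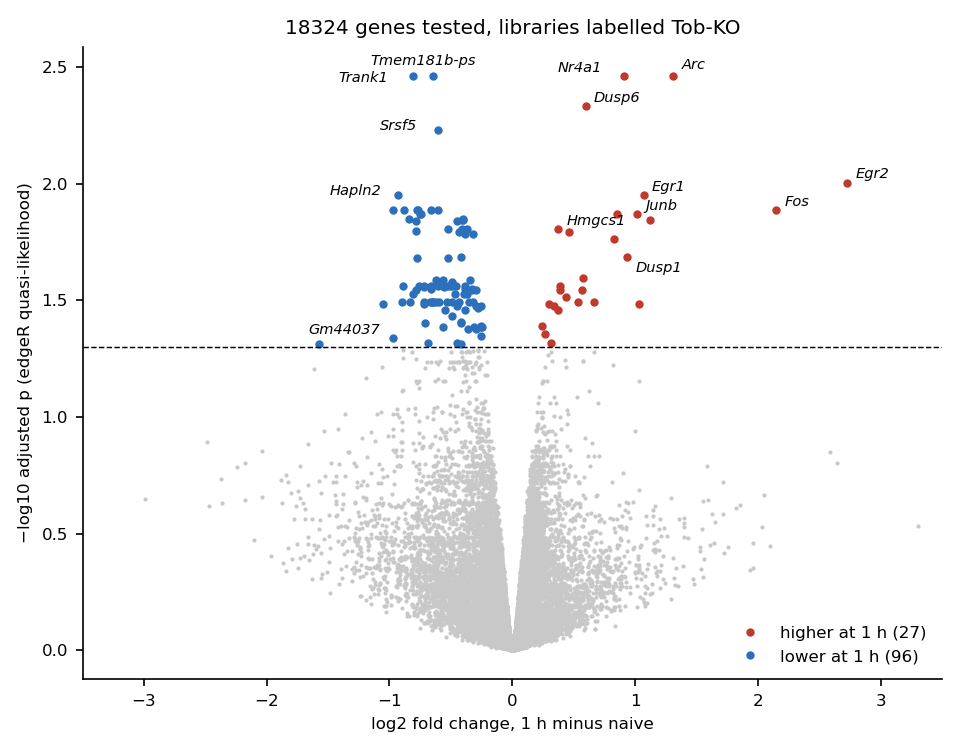
Each point is one of the 18324 genes tested in the libraries labelled Tob-KO, by its log2 fold change from naive to 1 h (x axis) and the −log10 of its adjusted p (y axis). The dashed line is the threshold of 0.05, above which 27 genes were higher (red) and 96 lower (blue), with Egr2 and Fos the red points farthest to the right.

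The count of calls leaned on single libraries. Without replicate 1, 2 or 3 of the 1 h group it was 4, 1 and 20, and without naive replicate 1, 2 or 3 it was 32, 95 and 233. Of the 123 genes, 31 were called without naive replicate 1. Arc was the gene called without 1 h replicate 2, and Arc, Nr4a1, Trank1 and Tmem181b-ps were those called without 1 h replicate 1. All 123 kept their direction in each of these 6 fits, with log2 fold changes 0.829 to 1.21 times those with all 6 libraries. Taking the spread from all 24 libraries gave 220 calls in 19500 genes (1.13%), with 82 upward and 138 downward, and 62 of them were among the 123.

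Among 28 immediate early transcription factors, 7 rose at 1 h, none fell, and 20 of the 27 that could be tested did not pass. All 27 had a positive log2 fold change, and their median was 0.59 against -0.01 over all genes. Of the 27, 22 had an unadjusted p under 0.05. Over all 18324 genes tested, 1089 were higher with such a p. Without naive replicate 1 the same 7 were called, and with the spread from 24 libraries Fosl2 was called and Nr4a1 was not. The 28th member, Fosl1, had 1 to 4 raw counts in each of the 6 libraries and was not tested.

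Fos, the partner of JUN proteins in the AP-1 factor and the best known activity marker (chr12:85473890-85477273), stood at 29.1, 30.6 and 27.3 CPM at 1 h and at 6.60, 4.08 and 8.89 CPM in naive mice. The groups did not overlap, and the fold change was 4.43 (log2 2.15 ± 0.23 SE, adjusted p = 0.013). Fosb, its relative, stood at 20.9, 17.5 and 20.4 CPM at 1 h and at 8.82, 7.63 and 10.5 CPM in naive mice. Junb, an AP-1 partner, stood at 93.0, 78.9 and 66.3 CPM against 41.6, 38.3 and 38.2 CPM. Both rose about equally, by a log2 fold change of 1.12 ± 0.13 (SE) for Fosb (adjusted p = 0.0143) and 1.01 ± 0.11 for Junb (adjusted p = 0.0135), and no 1 h library of either overlapped a naive one.

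Egr2, a zinc-finger factor of the EGR family (chr10:67535475-67542188), was low in naive mice, at 0.588, 0.628 and 1.15 CPM, and reached 5.43, 4.62 and 5.80 CPM at 1 h. Its fold change of 6.62 (log2 2.73 ± 0.25 SE, adjusted p = 0.00989) was the largest of the 123. Egr1 moved from 94.1, 80.0 and 110.3 CPM to 188, 202 and 208 CPM (log2 1.07 ± 0.10 SE, adjusted p = 0.0112). Egr4 moved from 22.02, 23.7 and 21.9 CPM to 45.2, 41.8 and 35.3 CPM (log2 0.86 ± 0.09 SE, adjusted p = 0.0135). In each of the 3 genes every 1 h library lay above every naive library. Egr3 was at 60.5, 54.0 and 59.6 CPM at 1 h and 52.7, 48.9 and 50.9 CPM in naive mice and did not pass (adjusted p = 0.219).

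Nr4a1, an orphan nuclear receptor (chr15:101254269-101274795), stood at 94.9, 96.7 and 82.1 CPM at 1 h and at 49.6, 47.1 and 49.1 CPM in naive mice, without overlap. It rose by a log2 fold change of 0.91 ± 0.07 (SE, adjusted p = 0.00344), but the call was lost with the spread from 24 libraries (adjusted p = 0.0626). Its relatives Nr4a3 and Nr4a2 did not pass (adjusted p = 0.166 and 0.315). Nr4a3 stood at 137, 110.5 and 103 CPM at 1 h and at 88.7, 95.6 and 77.3 CPM in naive mice. Nr4a2 overlapped between groups, because naive replicate 3 at 96.5 CPM lay above 1 h replicate 1 at 85.6 CPM.

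The AP-1 member Fosl2 was at 106, 89.0 and 83.2 CPM at 1 h and 58.3, 51.7 and 70.5 CPM in naive mice, and passed only with the spread from 24 libraries (adjusted p = 0.0771 with 6 libraries and 0.042 with 24). Npas4, a neuron-specific factor that calcium induces, was at 11.7, 8.05 and 9.998 CPM at 1 h and 6.27, 4.90 and 7.09 CPM in naive mice (adjusted p = 0.147). Npas4 was at 22.6, 17.3 and 30.7 CPM at 15 min, above every 1 h library, although the difference between those times did not pass (log2 -1.25 ± 0.21 SE, adjusted p = 0.0972).

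**Figure D2:**
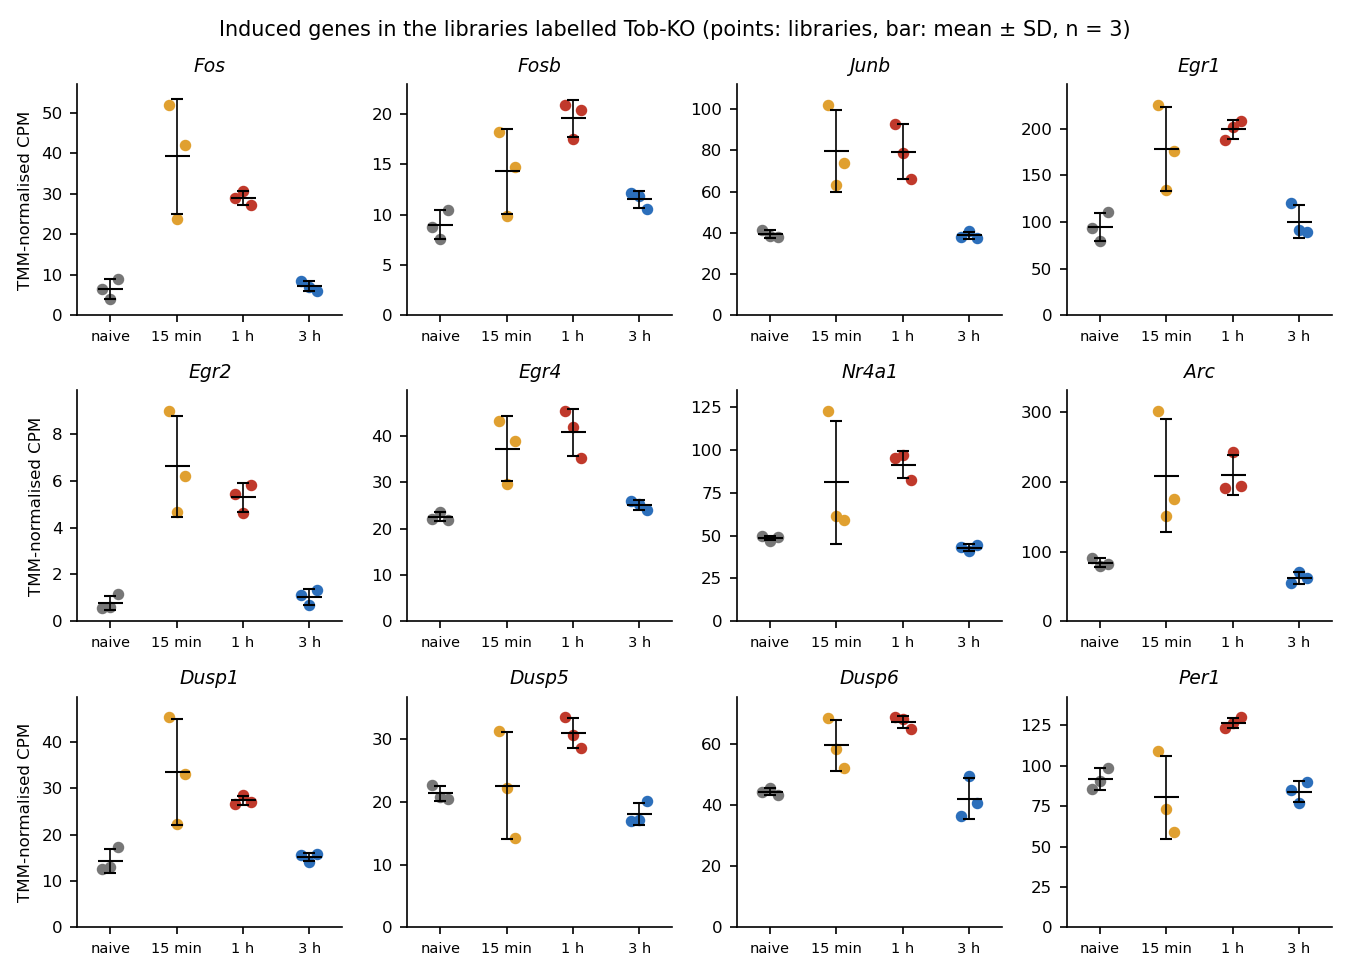
TMM-normalised CPM (y axis, from 0) of 12 genes that rose at 1 h, in each library labelled Tob-KO by time after conditioning (x axis), with points for libraries and bars for mean ± SD (n = 3). In all 12 panels the 1 h points lie above the naive points, as in every gene called higher. The 15 min points spread most widely (for Fos from 23.8 to 51.7 CPM).

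Of 29 activity-induced effectors, which act at the synapse, are secreted or signal, 3 rose, none fell, and 26 did not pass. The median log2 fold change of the list was 0.15. Arc, a capsid-forming protein that governs AMPA receptor removal from synapses (chr15:74669083-74672570), stood at 192, 243 and 194 CPM at 1 h and at 91.3, 80.3 and 82.0 CPM in naive mice. No 1 h library came near the naive range, and the log2 fold change was 1.31 ± 0.10 (SE, adjusted p = 0.00344). Gadd45b, a stress sensor linked to DNA demethylation in neurons, moved from 9.18, 8.55 and 8.21 CPM to 14.5, 14.4 and 12.3 CPM (log2 0.67 ± 0.10 SE, adjusted p = 0.0322).

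Cyr61, a secreted matricellular protein also known as CCN1, moved from 2.88, 3.52 and 3.07 CPM to 7.16, 6.94 and 5.27 CPM (log2 1.03 ± 0.16 SE, adjusted p = 0.0327). The groups of Gadd45b and Cyr61 did not overlap, but neither was called without naive replicate 1 (adjusted p = 0.068 and 0.103), and Cyr61 was not called with the spread from 24 libraries (adjusted p = 0.0838). Sik1, a kinase that restrains CREB coactivators, was at 29.4, 23.3 and 20.9 CPM against 12.7, 16.5 and 12.4 CPM and did not pass (adjusted p = 0.0598), nor did Tiparp (adjusted p = 0.093). Bdnf, the growth factor, did not pass, at 55.0, 55.2 and 49.9 CPM against 56.2, 52.8 and 47.6 CPM (log2 0.03 ± 0.07 SE).

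Of 18 ERK pathway kinases and feedback inhibitors, 3 rose, none fell, and 15 did not pass, with a median of 0.14. All 3 encode MAP kinase phosphatases. Dusp6, which acts on ERK in the cytoplasm, stood at 68.8, 68.3 and 65.0 CPM at 1 h and at 44.4, 45.7 and 43.3 CPM in naive mice (log2 0.60 ± 0.05 SE, adjusted p = 0.00464). Dusp1, which encodes the nuclear phosphatase MKP-1 (chr17:26505590-26562128), stood at 26.7, 28.5 and 26.995 CPM and at 12.6, 12.9 and 17.3 CPM (log2 0.94 ± 0.12 SE, adjusted p = 0.0206). Dusp5, which acts on ERK in the nucleus, stood at 33.4, 30.7 and 28.6 CPM and at 22.7, 20.8 and 20.5 CPM (log2 0.54 ± 0.08 SE, adjusted p = 0.0322).

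None of the 3 phosphatases overlapped between groups. Without naive replicate 1, Dusp6 was called (adjusted p = 0.0207), whereas Dusp1 and Dusp5 were not (adjusted p = 0.055 and 0.0556), and Dusp5 was not called with the spread from 24 libraries (adjusted p = 0.165). Spry4, an inhibitor of receptor tyrosine kinase signalling, was at 20.1, 22.8 and 20.6 CPM against 15.2, 16.1 and 15.8 CPM and passed with 24 libraries only (adjusted p = 0.057 with 6 libraries and 0.0171 with 24). Errfi1, a feedback inhibitor of the EGF receptor, did not pass (adjusted p = 0.0822).

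Of 21 glucocorticoid-responsive genes 1 rose, none fell and 20 did not pass, and the median was -0.04. The member that rose was Per1, a period gene of the circadian clock that also answers to CREB and to the glucocorticoid receptor. It stood at 124, 126 and 129.7 CPM at 1 h and at 85.8, 90.7 and 98.8 CPM in naive mice, without overlap (log2 0.46 ± 0.06 SE, adjusted p = 0.0162). The call was lost without naive replicate 1 (adjusted p = 0.055) and with the spread from 24 libraries (adjusted p = 0.256). Hif3a stood at 6.83, 8.78 and 10.9 CPM at 1 h and at 13.5, 14.4 and 16.9 CPM in naive mice, without overlap (adjusted p = 0.104). Plin4, a lipid droplet protein, stood at 3.30, 8.33 and 15.0 CPM and at 14.7, 34.3 and 29.3 CPM, with 1 h replicate 3 just inside the naive range (log2 -1.56 ± 0.48 SE, adjusted p = 0.212). Fkbp5, a chaperone of the glucocorticoid receptor, and Ddit4, an inhibitor of mTORC1, did not pass (adjusted p = 0.17 and 0.193).

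Of 15 genes of the circadian clock and its PAR-bZIP output, Per1 was again the one that rose, none fell, and 14 did not pass. Bhlhe40, a repressor of clock genes, was at 136, 122 and 137 CPM at 1 h and 112, 99.5 and 107 CPM in naive mice (adjusted p = 0.0868). Per3 had the opposite sign, at 43.8, 39.6 and 48.3 CPM against 53.2, 57.3 and 60.5 CPM (adjusted p = 0.0947). Per2 and Nr1d2 did not pass either (adjusted p = 0.241 and 0.273).

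None of 18 heat shock and endoplasmic reticulum chaperones passed, and their median was 0.04, or -0.09 without naive replicate 1. Dnajb1, a co-chaperone of HSP70, came nearest, at 66.1, 86.0 and 63.6 CPM at 1 h and 43.2, 43.2 and 49.5 CPM in naive mice (adjusted p = 0.0525 with 6 libraries and 0.00873 with 24). Xbp1, a transcription factor of the unfolded protein response, was at an adjusted p of 0.133.

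None of 18 genes of the Tob/Btg family and of mRNA deadenylation passed, with a median of 0.06. Tob1 itself was at 67.6, 66.2 and 59.3 CPM at 1 h and 52.0, 55.4 and 52.8 CPM in naive mice (log2 0.27 ± 0.06 SE, adjusted p = 0.118). Its paralog Tob2 was at 40.0, 43.3 and 43.1 CPM against 34.6, 39.3 and 34.9 CPM (adjusted p = 0.212), and Btg2, an antiproliferative relative, at 19.9, 18.1 and 17.1 CPM against 14.3, 14.3 and 13.5 CPM (adjusted p = 0.0997). Cnot6l and Pan2, both subunits of deadenylase complexes, had opposite signs (log2 0.20 ± 0.05 and -0.40 ± 0.07 SE), with adjusted p of 0.113 and 0.0573.

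Of the 5 stress hormone receptors and inflammation genes that the study named from these libraries, and which are no independent list, none passed at 1 h. Lcn2, the iron-carrier binding protein lipocalin-2, had 1, 2 and 1 raw counts at 1 h and 2, 9 and 15 in naive mice, so its level at 1 h was at the floor of 3 counts and no fold is given (adjusted p = 0.241). Mc3r, Crhr2, Avpr1a and Esr1 were at 0.18 to 6.44 CPM in the 6 libraries, with adjusted p from 0.647 to 0.989.

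Outside these lists, the higher genes included enzymes of cholesterol synthesis, a pathway in which acetyl units are joined into mevalonate, isoprenes and then sterols. A list of 25 genes for cholesterol synthesis and uptake was written after these values were seen and is described without a test. Its members comprised 5 that rose, 1 that fell and 19 that did not pass. A positive log2 fold change was seen in 22, and the median was 0.24, against -0.01 over all genes tested. Without naive replicate 1 none was called, and the median was 0.25. With the spread from 24 libraries 6 were called higher. Hmgcs1, which makes HMG-CoA (chr13:119690379-119708260), stood at 285, 303 and 282 CPM at 1 h and at 223, 221 and 228 CPM in naive mice (log2 0.37 ± 0.04 SE, adjusted p = 0.0157). The naive libraries lay within a few CPM of each other and well below the lowest 1 h library.

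Idi1, the isopentenyl diphosphate isomerase, moved from 14.6, 16.1 and 14.2 CPM to 23.1, 22.2 and 21.5 CPM (log2 0.58 ± 0.08 SE, adjusted p = 0.0253). Sqle, the squalene epoxidase that commits the pathway to sterols, moved from 49.0, 51.7 and 54.9 CPM to 66.0, 69.8 and 67.7 CPM (log2 0.39 ± 0.05 SE, adjusted p = 0.0274). Msmo1 and Cyp51, both of which remove methyl groups from the sterol ring, rose by a log2 fold change of 0.44 ± 0.07 (SE, adjusted p = 0.0305) and 0.37 ± 0.06 (adjusted p = 0.0347). In each of these 4 genes the groups did not overlap. The member that fell was Srebf1, better known for fatty acid genes, from 67.2, 68.9 and 67.1 CPM to 57.0, 56.0 and 57.3 CPM (log2 -0.26 ± 0.04 SE, adjusted p = 0.0412 with 6 libraries and 0.13 with 24).

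Other higher genes on no list were Arl5b, a small GTPase of the Golgi (log2 0.39 ± 0.06 SE, adjusted p = 0.0285), Coq10b, a coenzyme Q binding protein (0.57 ± 0.08, adjusted p = 0.0285), Slc6a15, a neuronal transporter of neutral amino acids (0.30 ± 0.05, adjusted p = 0.0327) and 2310022B05Rik (0.34 ± 0.05, adjusted p = 0.0335). Gm42418, a noncoding gene at chr17:39846958-39848788 that overlaps an annotated ribosomal RNA copy, was at 1560, 1433 and 1359 CPM at 1 h and 895, 865 and 684 CPM in naive mice (log2 0.83 ± 0.10 SE, adjusted p = 0.0172). The call was lost with the spread from 24 libraries (adjusted p = 0.134), as was that of Coq10b (0.0674). A count per gene does not tell reads of Gm42418 from those of the ribosomal copy. The strand setting of the counting is not given in the sources used here.

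The 96 genes that fell had log2 fold changes from -1.57 to -0.25. The smallest adjusted p among them belonged to Tmem181b-ps, a pseudogene, and Trank1, a large protein with ankyrin repeats (chr9:111311739-111395775). Trank1 stood at 246, 220.3 and 229 CPM at 1 h and at 429, 385 and 404 CPM in naive mice (log2 -0.81 ± 0.06 SE, adjusted p = 0.00344). Tmem181b-ps moved from 135, 126 and 132 CPM to 85.6, 84.0 and 81.2 CPM (log2 -0.65 ± 0.05 SE, adjusted p = 0.00344), and its reads may be shared with its parent gene. Pisd-ps1, another pseudogene, Zfc3h1, a factor that hands nuclear RNA to the exosome, and Csf2ra, a cytokine receptor chain, fell as well (log2 -0.88 ± 0.09, -0.61 ± 0.06 and -0.77 ± 0.08 SE, adjusted p = 0.013 each). With the spread from 24 libraries, Tmem181b-ps (adjusted p = 0.0808), Pisd-ps1 (0.0777) and Zfc3h1 (0.0585) were not called, whereas Trank1 (0.0459) and Csf2ra (0.0187) were.

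Splicing factors were among the lower genes. A list of 43 splicing and nuclear speckle proteins, written after the values were seen and described without a test, held 19 that fell, none that rose and 24 that did not pass. The log2 fold change was negative in 38 of the 43, with a median of -0.26, against -0.01 over all genes tested. Without naive replicate 1, 5 fell, and the median was -0.24. With the spread from 24 libraries 7 fell and 1, Tra2b, rose. The member with the smallest adjusted p was Srsf5, an SR protein of the constitutive splicing machinery (chr12:80945504-80950507), at 159, 147 and 158 CPM at 1 h and 245, 224 and 237 CPM in naive mice (log2 -0.60 ± 0.05 SE, adjusted p = 0.00589).

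Pabpn1, the nuclear poly(A) binding protein, moved from 23.4, 23.7 and 23.1 CPM to 13.9, 15.4 and 15.0 CPM (log2 -0.66 ± 0.07 SE, adjusted p = 0.013), with no call when the spread came from 24 libraries (adjusted p = 0.114). The following were picked after their values were seen. Pnisr, a serine and arginine rich nuclear protein, moved from 228, 196 and 220.4 CPM to 131, 115 and 139.5 CPM. Srsf6 and Srsf11, 2 further SR proteins, and Snrnp70, a subunit of the U1 particle that marks 5′ splice sites, fell by smaller amounts (log2 -0.32 ± 0.04, -0.35 ± 0.05 and -0.40 ± 0.05 SE). In all 4 every 1 h library lay below every naive library. Tra2b, a splicing activator of the same list, had the opposite sign and passed with 24 libraries only (log2 0.21, adjusted p = 0.107 with 6 libraries and 0.0349 with 24).

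Of 22 long noncoding RNA genes on a list made after the values were seen, 5 fell, none rose and 17 did not pass. A negative log2 fold change was seen in 21, and the median was -0.31, against -0.01 over all genes tested. Firre, a nuclear RNA of the X chromosome, was at 38.0, 34.1 and 34.8 CPM at 1 h and 63.9, 65.2 and 53.6 CPM in naive mice (log2 -0.77 ± 0.08 SE, adjusted p = 0.013). It was the 1 member called without naive replicate 1 (adjusted p = 0.0357), and with the spread from 24 libraries it was not (adjusted p = 0.0789). Snhg11, a neuron-enriched host of small nucleolar RNAs (chr2:158375638-158386145), moved from 1153, 838 and 990.0 CPM to 554, 517 and 633 CPM (log2 -0.81 ± 0.12 SE, adjusted p = 0.0297 with 6 libraries and 0.0562 with 24). The GENCODE vM21 annotation types Snhg11 as protein-coding.

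Miat, Snhg20 and Mir124a-1hg, the host of a neuronal microRNA, also fell (log2 -0.71 ± 0.12, -0.83 ± 0.13 and -0.66 ± 0.10 SE). The nuclear-retained Malat1 was at 676, 567 and 863 CPM against 1180.5, 1081 and 1179 CPM and did not pass (adjusted p = 0.0615), and neither did Meg3 (adjusted p = 0.0703). For both, no 1 h library reached a naive one.

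Of the extracellular matrix genes, 6 of 32 members of a list made after the values were seen fell, none rose and 26 did not pass. Without naive replicate 1, 4 fell. The median was -0.06 with all libraries and -0.19 without that one. Thbs4, a secreted thrombospondin, was at 14.8, 16.4 and 16.03 CPM at 1 h and 32.6, 33.6 and 26.6 CPM in naive mice (log2 -0.97 ± 0.10 SE, adjusted p = 0.013). Hapln2, a link protein of the matrix at nodes of Ranvier, was at 14.3, 15.2 and 16.1 CPM against 27.3, 32.5 and 27.2 CPM (log2 -0.93 ± 0.09 SE, adjusted p = 0.0112). For both, all 1 h libraries lay far below all naive ones. Agrn, Col4a2, Col11a1 and Thbs3, picked after their values were seen, fell by log2 fold changes of -0.40, -0.48, -0.89 and -0.57.

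Several library properties moved with these lower genes, and their part was not tested. Gm42418 was higher in each 1 h library, as given above. In WT it overlapped between the times, at 1331, 1189 and 2245 CPM at 1 h and 1371, 2309 and 837 CPM in naive mice. The number of genes with a count was 22535 to 23024 at 1 h and 23289 to 23632 in naive mice, and total counts were lower in each 1 h library than in each naive one. Mitochondrial transcripts took 3.48% to 3.58% of counts at 1 h and 3.14% to 3.41% in naive mice. Of all 24 libraries, the lower genes stood lowest in replicate 3 of the 15 min libraries labelled KO, at a mean log2 level of -0.62 relative to the mean of the libraries, against -0.27 to -0.19 in the 1 h libraries and 0.29 to 0.39 in the naive ones that served to call them.

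**Figure D3:**
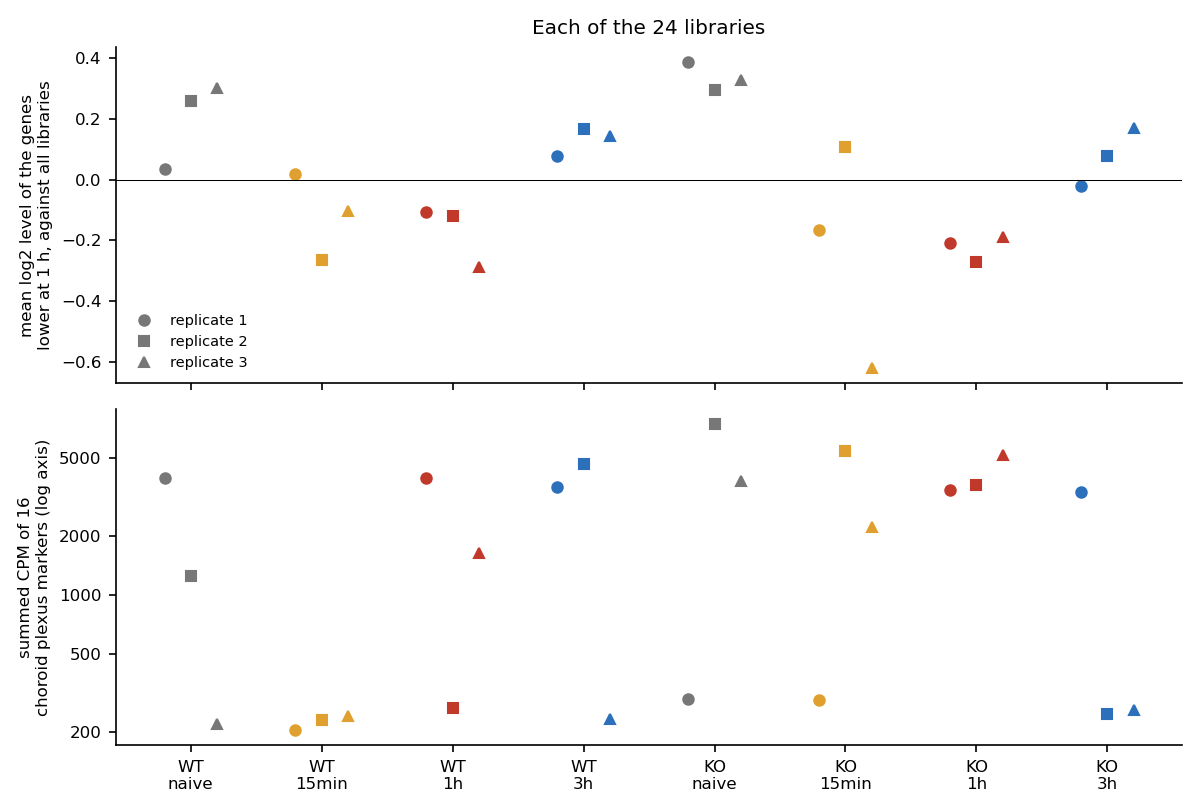
Top, mean log2 level of the 96 lower genes in each of the 24 libraries relative to the mean of all libraries. Bottom, summed CPM of the 16 choroid plexus markers (log axis), with groups on the x axis and symbols for the replicate number: naive replicate 1 labelled KO has 292 CPM. The 96 genes were called on the naive and 1 h libraries labelled KO, so the separation of those 6 points in the top panel follows from the choice of genes.

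By annotation (GENCODE vM21), 92 of the 96 lower genes matched 1 gene, of which 78 were protein-coding, 3 pseudogenes and 11 noncoding or other. The matched genes tested held 14776 protein-coding genes, 544 pseudogenes and 2237 noncoding or other. Protein-coding genes were thus 84.8% of the matched lower genes and 84.2% of the matched genes tested, so the lower genes were close to that share. Of the 26 matched higher genes 25 were protein-coding. The median length from first to last base was 15.7 kb for the lower genes and 15.2 kb for the higher genes, against 20.4 kb for the 17557 matched genes tested. The median exonic length was 5.33 kb, 3.96 kb and 3.95 kb in the same order, and the median GC content of the longest transcript 52.0%, 51.7% and 49.5%. These are descriptions with no test.

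The direction of these 123 genes was then read in the 6 WT libraries of the same times, which played no part in calling them. All 27 higher genes were higher and all 96 lower genes were lower at 1 h than in naive WT mice, where 50.8% and 49.2% of all genes tested had those signs. In WT, the 3 libraries at 1 h lay above the 3 naive libraries for 24 of the 27 genes (7.96% of all genes did so), and below them for 69 of the 96 (8.44% of all genes). The median log2 fold change in WT was 0.44 over the 27 and -0.35 over the 96, smaller than the 0.58 and -0.52 in the libraries that had served to call them.

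In a fit over the 12 libraries, no gene passed the test for a change from naive to 1 h that differed between the genotypes. Of 18882 genes 0 were called (0%), the smallest adjusted p was 0.988, 694 genes had an unadjusted p under 0.05, and DESeq2 called none either. With 3 libraries a group, a lack of calls does not show that the responses were equal. Fos in WT was at 34.7, 36.7 and 25.5 CPM at 1 h and 14.5, 14.8 and 12.9 CPM in naive mice, so the 1 h libraries of both genotypes overlapped while the naive ones were lower in those labelled KO. The difference between the genotypes in log2 fold change was 0.95 ± 0.29 (SE) for Fos (unadjusted p = 0.00572, adjusted p = 0.988). Dusp1 in WT was at 24.1, 26.1 and 20.3 CPM at 1 h and 25.5, 18.1 and 21.0 CPM in naive mice. The 2 groups of Dusp1 overlapped in WT. They did not in Tob-KO, as for every gene called there, so this contrast is no measure of a genotype difference. The difference in log2 fold change was 0.81 ± 0.20 (SE, unadjusted p = 0.0013, adjusted p = 0.988). A difference between the genotypes is thus not established for either gene. Arc and Egr2 had differences of 0.53 ± 0.17 and 0.76 ± 0.42, and Per1 of -0.01 ± 0.10.

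**Figure D4:**
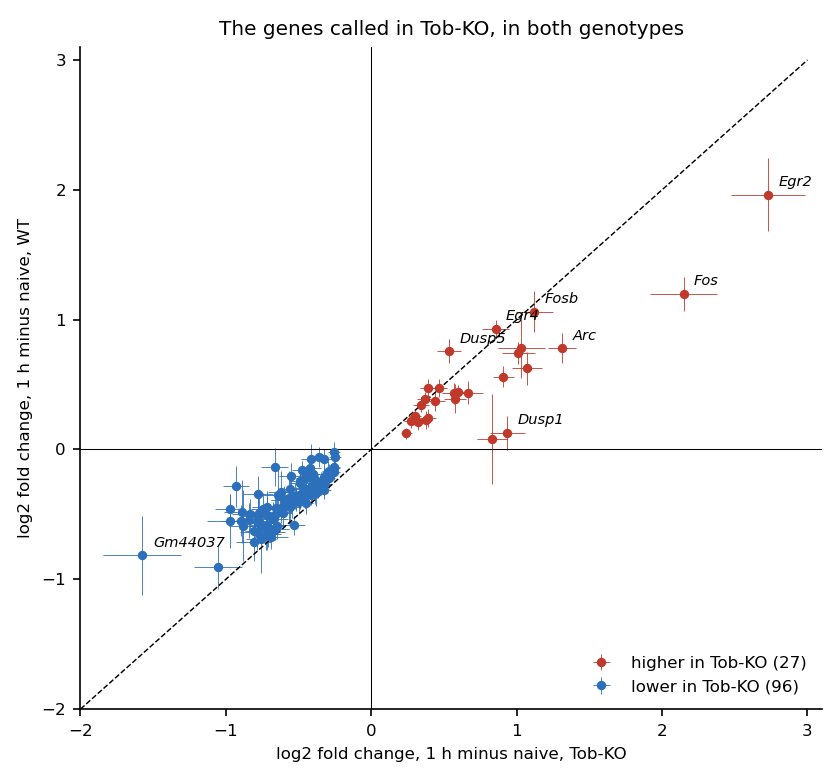
Log2 fold change from naive to 1 h of the 123 genes in the libraries labelled Tob-KO (x axis) and WT (y axis), with SE bars. Every red point (27 higher) lies above 0 and every blue point (96 lower) below 0 on both axes, and the dashed line marks equal change, below which Fos, Egr2 and Dusp1 lie.

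The 1 h libraries were also compared with the neighbouring times in mice labelled KO, in fits that share the 1 h libraries with the comparison above. Against 15 min, 5 of 18220 genes were called (0.0274%), and no member of the gene lists was among them except oligodendrocyte markers. Slc5a3, the osmolyte transporter for myo-inositol, was higher at 1 h, at 76.3, 73.3 and 76.0 CPM against 49.2, 57.2 and 49.1 CPM (log2 0.54 ± 0.06 SE, adjusted p = 0.0473). The other 4, lower at 1 h, were Cnp and Mag, which are myelin genes on the oligodendrocyte list, Bcas1, a marker of oligodendrocytes that are forming myelin, and Tmem88b. Of the 7 oligodendrocyte markers, 2 were called. The sum of the 7 was 6438.5, 6577 and 6743 CPM at 15 min and 5188 to 5318 CPM at 1 h. The part of oligodendrocyte content in these calls was not tested. Cnp was at 283, 299 and 292 CPM at 1 h and 372, 371 and 380.4 CPM at 15 min (log2 -0.36 ± 0.04 SE). None of the 5 was called with the spread from 24 libraries, with a filter of 1 CPM in 3 libraries or with a choroid plexus covariate.

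No immediate early gene passed between 15 min and 1 h. Fos was at 51.7, 23.8 and 42.1 CPM at 15 min, with 1 library below and 2 above all 1 h libraries (log2 of 1 h against 15 min -0.44 ± 0.23 SE, adjusted p = 0.597). Per1 was at 109, 73.1 and 59.2 CPM at 15 min, below all 1 h libraries (0.66 ± 0.18 SE, adjusted p = 0.303). Egr2 was at 8.95, 4.68 and 6.21 CPM at 15 min, overlapping the 1 h libraries.

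From 1 h to 3 h, 42 of 18212 genes passed (0.231%), with 10 higher at 3 h and the other 32 lower. Of the 28 immediate early transcription factors 8 were among the lower ones, and so were 4 of the 29 effectors and 4 of the 18 ERK pathway genes. Fos was at 8.45, 7.12 and 5.96 CPM at 3 h (log2 -2.02 ± 0.12 SE, adjusted p = 0.000397), Arc at 54.5, 70.5 and 62.2 CPM (-1.75 ± 0.11), Nr4a1 at 43.5, 40.7 and 44.6 CPM (-1.09 ± 0.07) and Dusp1 at 15.6, 14.2 and 15.8 CPM (-0.85 ± 0.07, adjusted p = 0.00289). All these 3 h libraries lay below all 1 h libraries. Slc5a3 was at 47.2, 48.3 and 49.0 CPM at 3 h (-0.65 ± 0.04, adjusted p = 0.000397), below every 1 h library as well.

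Among the 10 genes higher at 3 h were Trank1, Tmem181b-ps, Srsf5, Zranb2, Hip1 and Csf2ra, all of which had been lower at 1 h than in naive mice. Trank1 was at 309, 347 and 357 CPM at 3 h, between its 1 h and naive levels (log2 0.54 ± 0.06 SE, adjusted p = 0.019). Srsf5 was at 201, 201 and 225 CPM at 3 h (0.42 ± 0.05, adjusted p = 0.0227). The cholesterol genes had no call in this comparison, with Hmgcs1 at 265, 257 and 264 CPM at 3 h (-0.15 ± 0.04, adjusted p = 0.182). The count of 42 was 8, 6 and 13 without 1 h replicate 1, 2 or 3, and 546, 25 and 17 without 3 h replicate 1, 2 or 3. With the spread from 24 libraries 42 genes were called, of which 16 were among these 42.

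**Figure D5:**
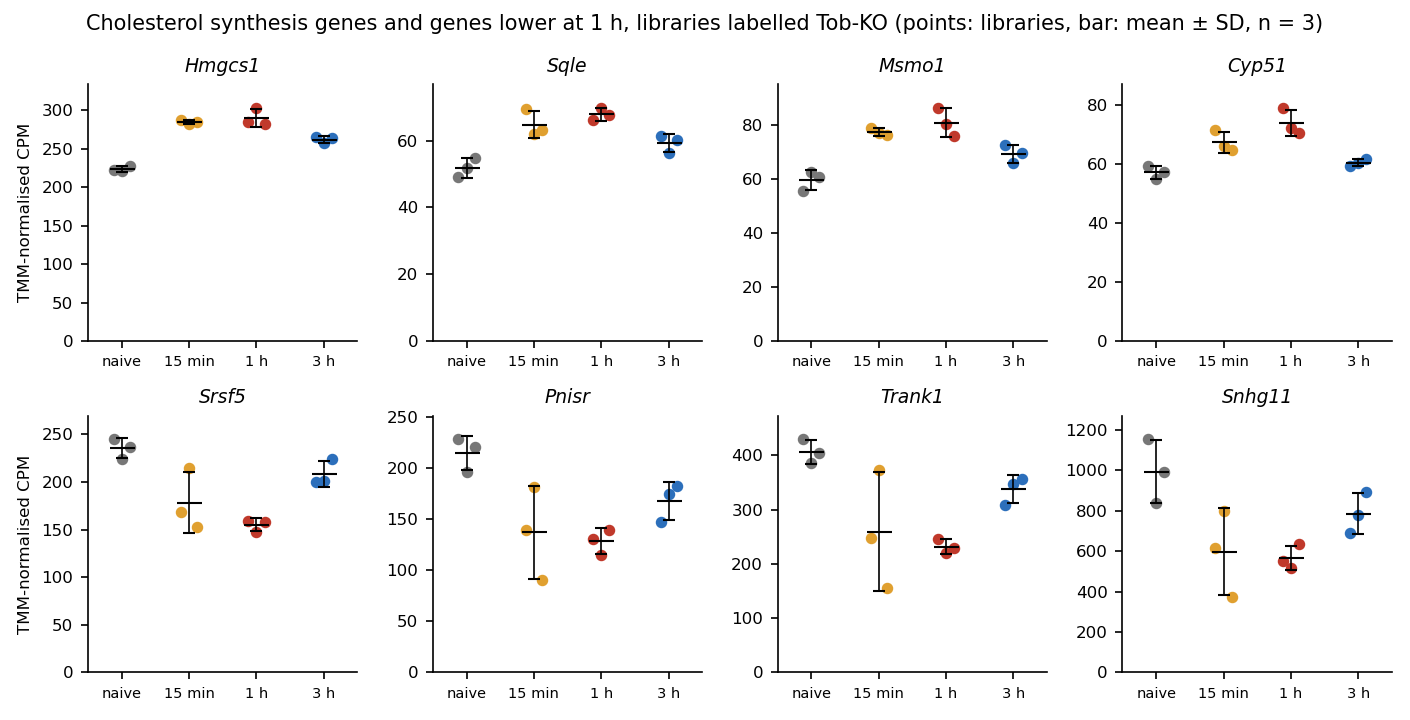
TMM-normalised CPM (y axis, from 0) of 4 cholesterol synthesis genes (top) and 4 genes lower at 1 h (bottom) in each library labelled Tob-KO by time after conditioning, with points for libraries and bars for mean ± SD (n = 3). Hmgcs1 is above its naive libraries at each later time, and Trank1 falls to 220.3 to 246 CPM at 1 h and stands at 309 to 357 CPM at 3 h.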

How the data were processed

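RNA was measured in 24 hippocampal libraries. Per the study's methods, the authors prepared directional poly(A) libraries, mapped reads to GRCm38 with STAR 2.6.1d (version per the submitters' processing notes) and counted them with HTSeq 0.9.0. What the authors deposited are raw counts, which are whole numbers and were not normalized. The annotation release, the strand setting and the use of marked duplicate reads are not given in the sources used here. Genes that share reads with paralogs, pseudogenes or overlapping genes are therefore uncertain.

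Groups came from the sample labels. The counts were tested with edgeR 4.0.16 in R 4.3.3 by the quasi-likelihood test with TMM normalization, on genes with at least 0.2 CPM in 2 libraries of the fit, and a call was a Benjamini-Hochberg adjusted p of at most 0.05 over all genes tested. Levels are CPM with TMM factors over the 24 libraries. Standard errors are the log2 fold change divided by the square root of its F. The study's methods give TMM, the filter and the adjusted p used here, with edgeR's exact test and a limit of 2-fold. Here both of these are alternatives. Other alternatives were RLE factors, library size alone, other filters, DESeq2 1.42.0, a spread from 24 libraries, a replicate block, a choroid plexus covariate and fits without each replicate. The code was tested on simulated data.

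Named genes were the called members and the 5 members with the smallest p of each list, up to 10 higher and 10 lower called genes on no list, Tob1 and the top 5 of each other comparison. Genes named outside this rule were chosen after their values were seen: Fosl1, Fosl2, Egr3, Nr4a2, Nr4a3, Npas4, Bdnf, Srebf1, Pnisr, Srsf6, Srsf11, Snrnp70, Tra2b, Zranb2, Hip1, Snhg11, Snhg20, Miat, Mir124a-1hg, Malat1, Meg3, Agrn, Col4a2, Col11a1, Thbs3, Gm44037 and Gm42851. The members and lists were chosen with earlier results of these data known, and the lists for cholesterol, splicing, noncoding RNA and matrix after the values were seen. PCR reads carry no molecular identifiers, so totals of 28847989 to 41595972 counts are not independent molecules. Replicates of the naive and 1 h groups labelled KO differed by 4.44 to 22.8 chi-square per degree of freedom, so none was a repeated deposit.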

Additional observations from a re-analysis of the deposited data

How the results depend on the processing

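The 123 genes called between 1 h and naive mice labelled KO became 241 with no filter beyond 1 count, 429 with DESeq2, 220 with the spread from 24 libraries, 356 with edgeR's exact test and 9 with a change of at least 2-fold as well. The 5 genes called between 1 h and 15 min became 147 with no filter beyond 1 count, 171 with DESeq2, 173 with the exact test, and 0 with a filter of 1 CPM in 3 libraries, with the spread from 24 libraries, and with a change of at least 2-fold, while 1703 had an unadjusted p under 0.05 in edgeR's quasi-likelihood test. The 42 genes called between 3 h and 1 h became 306 with no filter beyond 1 count, 376 with DESeq2, 367 with the exact test and 8 with a change of at least 2-fold. The cause was not tested. Without one replicate each, the counts ranged from 1 to 233, from 0 to 20 and from 6 to 546 in the same order, in fits with 2 libraries in one group.

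Libraries that share a replicate number did not deviate together in every pair (r = 0.19, -0.13 and 0.27 between naive and 1 h), and the labels name nothing the numbers share, so the libraries were not taken as paired. With a replicate block, 95 genes were called at 1 h against naive, of which 77 were among the 123, 0 against 15 min, and 4 between 3 h and 1 h. For 2 of the 3 numbers the highest correlation was with the library of the same number. Under the block Hif3a, Plin4 and Bhlhe40 were called (adjusted p = 0.0468, 0.0493 and 0.0468 in edgeR's quasi-likelihood test). A choroid plexus covariate gave 83 calls at 1 h against naive, 77 of them among the 123, 4 calls against 15 min, 0 of them among the 5, and 30 between 3 h and 1 h, 16 of them among the 42. The spread from 24 libraries gave 42 calls between 3 h and 1 h, 16 of them among the main 42.

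Of the 34 called genes named by rule, all kept their direction in each of the 15 alternatives. With RLE factors, library size alone, both other filters, DESeq2 and the exact test, 34 stayed called. With the choroid plexus covariate 30 did, with the replicate block 28 and with the spread from 24 libraries 23. Without 1 h replicate 1, 2 or 3, those that stayed called were 4, 1 and 11. Without naive replicate 1, 2 or 3 they were 20, 26 and 30. Among genes that were not called, leave-one-out fits spanned 0 for Crhr2 (-0.46 to 0.064), Esr1 (-0.056 to 0.38), Avpr1a (-0.58 to 0.40, with -0.45 without naive replicate 3) and Cnp (-0.22 to 0.0096), on the log2 scale of 1 h against naive. Mc3r, Avpr1a, Esr1 and Lcn2 are counted at low levels, which limits what their values can show.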
